A study of Mus musculus with 36 samples.

Results

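The endoplasmic reticulum (ER) chaperones and the genes that report on their transcription factor XBP1 were followed through fibroblasts grown with different tumour cells. The 10 genes were Hspa5, Hsp90b1, Calr, Pdia3, Pdia4, Pdia6, Dnajb9, Sdf2l1, Xbp1 and Herpud1, taken by symbol from the 39017 genes of the count table. Each of the 10 was among the 14439 genes abundant enough to be tested. The cells were murine pancreatic fibroblasts of the C57BL/6 strain, cultured alone (mono-culture) or for 48 hours together with a tumour line, and then sorted away from the GFP-expressing tumour cells. There were 9 groups of 4 poly(A) RNA libraries: the mono-culture, co-cultures with tumour sub-clones E, H, K, M, N, T and V, and a co-culture with KPC1, a tumour line whose name the labels do not explain. The fibroblasts carried no stated genetic change and the labels name no drug. Each sub-clone is 1 line, so a value with it describes that line, and nothing in the labels says whether the 4 libraries of a group came from separate cultures. The p-values then measure only the spread between these libraries.

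Proteins that enter the secretory pathway fold in the ER with the help of chaperones. HSPA5 (BiP) and HSP90B1 (GRP94) bind unfolded chains, calreticulin (Calr) works with PDIA3 on glycoproteins, and protein disulfide isomerases form and reshuffle disulfide bonds. When unfolded protein accumulates, the sensors IRE1 (Ern1), ATF6 and PERK (Eif2ak3) start the unfolded protein response. IRE1 removes a short segment from the Xbp1 mRNA, and the spliced mRNA encodes the active factor, which induces chaperones, the BiP partner DNAJB9 and parts of ER-associated degradation. ATF6 acts on many of the same chaperone genes, while PERK works through ATF4. Fibroblasts secrete large amounts of collagen and other matrix, which pass through the ER.

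The segment that IRE1 removes is shown because the counts cannot see it. It is 26 bases long and lies in an Xbp1 exon at chr11:5524279-5524304 (GRCm38, + strand). In the line below, read from the GENCODE M21 transcript Xbp1-201 over chr11:5524261-5524322, it is in capitals.

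Xbp1: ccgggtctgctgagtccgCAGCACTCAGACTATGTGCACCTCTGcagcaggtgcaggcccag

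Of 4 annotated Xbp1 transcripts, 3 held this segment and 0 held its 2 flanks joined. Reads of spliced and unspliced Xbp1 were thus summed in 1 gene count, and every Xbp1 value here is total Xbp1 mRNA.

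The regulatory letters of the members are shown next, since genes under XBP1 and ATF6 are known to share the ER stress response element (ERSE). RefSeq windows (GRCm38.p6) running from 250 bases before to 50 bases after each transcription start were matched for 10 of 10 members. The ERSE was searched as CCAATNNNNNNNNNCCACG on both strands and was present in 4 of the 10 windows (Hspa5, Hsp90b1, Calr and Pdia6), against 0.119% of the 32851 windows of the same length. The stretches around these matches follow, 5′ to 3′ on the strand of the gene, with the matches in capitals (a match on the opposite strand reads in reverse complement). In Hspa5 the first capitals are the core of the unfolded protein response element, TGACGTG, found in 2.01% of windows.

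Hspa5, chr2:34771921-34772055, + strand: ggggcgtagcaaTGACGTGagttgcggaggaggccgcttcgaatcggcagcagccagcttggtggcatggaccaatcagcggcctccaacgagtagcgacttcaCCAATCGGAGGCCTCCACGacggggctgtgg
Hsp90b1, chr10:86705521-86705668, - strand: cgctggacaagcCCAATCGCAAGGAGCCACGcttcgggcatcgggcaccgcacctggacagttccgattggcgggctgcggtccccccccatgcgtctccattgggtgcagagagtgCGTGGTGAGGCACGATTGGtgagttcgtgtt
Calr, chr8:84847063-84847105, - strand: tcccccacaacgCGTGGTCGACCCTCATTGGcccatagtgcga
Pdia6, chr12:17266479-17266521, + strand: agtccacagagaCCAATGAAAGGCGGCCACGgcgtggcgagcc

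The ERSE began 65 bases before the start in Hspa5, 98 in Pdia6 and 162 in Calr, and Hsp90b1 held a pair, at 212 and 107. Without its last letter (CCAATNNNNNNNNNCCAC, which overlaps each full match and occurs in 0.365% of windows) it was also present in Pdia3, Pdia4 and Herpud1. Herpud1 held in addition the ERSE-II, ATTGGNCCACG, which occurred in 0.0365% of windows, 52 bases before its start. These 3 windows are printed below, and Pdia3 and Herpud1 had the smallest and the widest range of clone means among the members. Of the strings searched, Pdia3 held only the shortened ERSE. Whether the letters bear on the range of clone means was not tested.

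Pdia3, chr2:121413861-121413901, + strand: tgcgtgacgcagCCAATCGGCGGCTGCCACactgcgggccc
Pdia4, chr6:47813590-47813631, - strand: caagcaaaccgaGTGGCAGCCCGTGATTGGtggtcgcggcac
Herpud1, chr8:94386365-94386428, + strand: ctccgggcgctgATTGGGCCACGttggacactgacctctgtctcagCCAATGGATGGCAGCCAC

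The element that ATF4 and its partners are known to bind (TGATGNAA, both strands) was found in Herpud1 alone among the members, 112 bases before the start, and in 3.97% of all windows. Dnajb9, Sdf2l1 and Xbp1 held none of these letter strings in the window. A match is a description of letters and does not show binding. The members were chosen as known ER chaperones and XBP1 targets, so their higher share of ERSE matches is not an independent result.

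**Figure D1:**
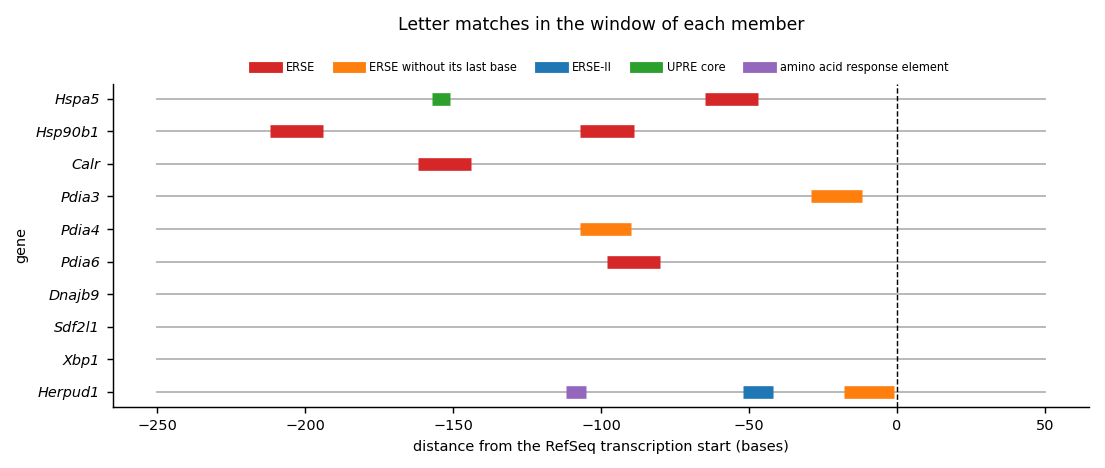
Positions of the letter matches in the window of each member, with distance from the RefSeq transcription start in bases on the horizontal axis and 1 line per gene. Full ERSE matches (red) stand in 4 genes and shortened ones (orange) in 3 more, while Dnajb9, Sdf2l1 and Xbp1 carry no mark.

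Levels per transcript length (RPKM, reads per kilobase of gene scaled to the size of the library) ranked the members as follows in fibroblasts grown alone. In the mono-culture the mean was 421 ± 54.9 RPKM for Calr, 320.3 ± 32.6 for Hsp90b1, 207 ± 10.9 for Pdia3 and 131 ± 11.3 for Hspa5 (SD, n = 4). Pdia6, Pdia4 and Herpud1 lay between 77.2 and 88.4 RPKM. Xbp1, Sdf2l1 and Dnajb9 were lowest, at 21.9, 16.2 and 14.5 RPKM. Gene positions below are those of GENCODE M21 (GRCm38). All further levels are counts relative to the TMM-scaled library size (CPM) and compare 1 gene between groups.

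The first comparison asked whether each tumour line changed these genes relative to the mono-culture. Co-culture with clones H and V and with KPC1 raised most of the members, clones E, N and T raised some of them, and clones K and M raised none. A gene was called when the edgeR adjusted p over all genes tested was below 0.05. With clone V, 7 members were higher and 0 lower, where 29.4% of all genes tested were called higher and 28.9% lower. With clone H, 7 were higher and 1 lower (all genes 27.8% and 26.4%), and with KPC1 6 were higher and 1 lower (30.5% and 28.5%). Clone T gave 4 higher and 1 lower (25% and 24.7%), clone N 3 and 0 (19.7% and 19.2%) and clone E 2 and 1 (16.5% and 15.5%). With clone M only Herpud1 was called, and it was lower (all genes 12.2% higher and 10.8% lower). With clone K 0 members were called under each of the settings tried (10.4% and 8.69%), and 0 had an unadjusted p below 0.05. Shares of the members called higher thus lay above those of all genes with clones H and V and with KPC1, and within 2 members of them with clones E, N and T. The median log2 fold change of the 10 members was 0.55 with clone V, 0.36 with clone H, 0.34 with KPC1, 0.17, 0.11, 0.08 and 0.06 with clones T, N, E and K, and -0.08 with clone M, beside medians of all genes within -0.009 and 0.012. Of 10 fibroblast markers, 5 were lower and 3 higher with clone H, 5 and 2 with clone V, and 6 and 4 with KPC1 and with clone T. With clones E, K, M and N 0 were lower and 2, 2, 1 and 3 higher. The part of these markers in the members' values was not tested. These comparisons share the 4 mono-culture libraries, so they are not independent of each other.

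**Figure D2:**
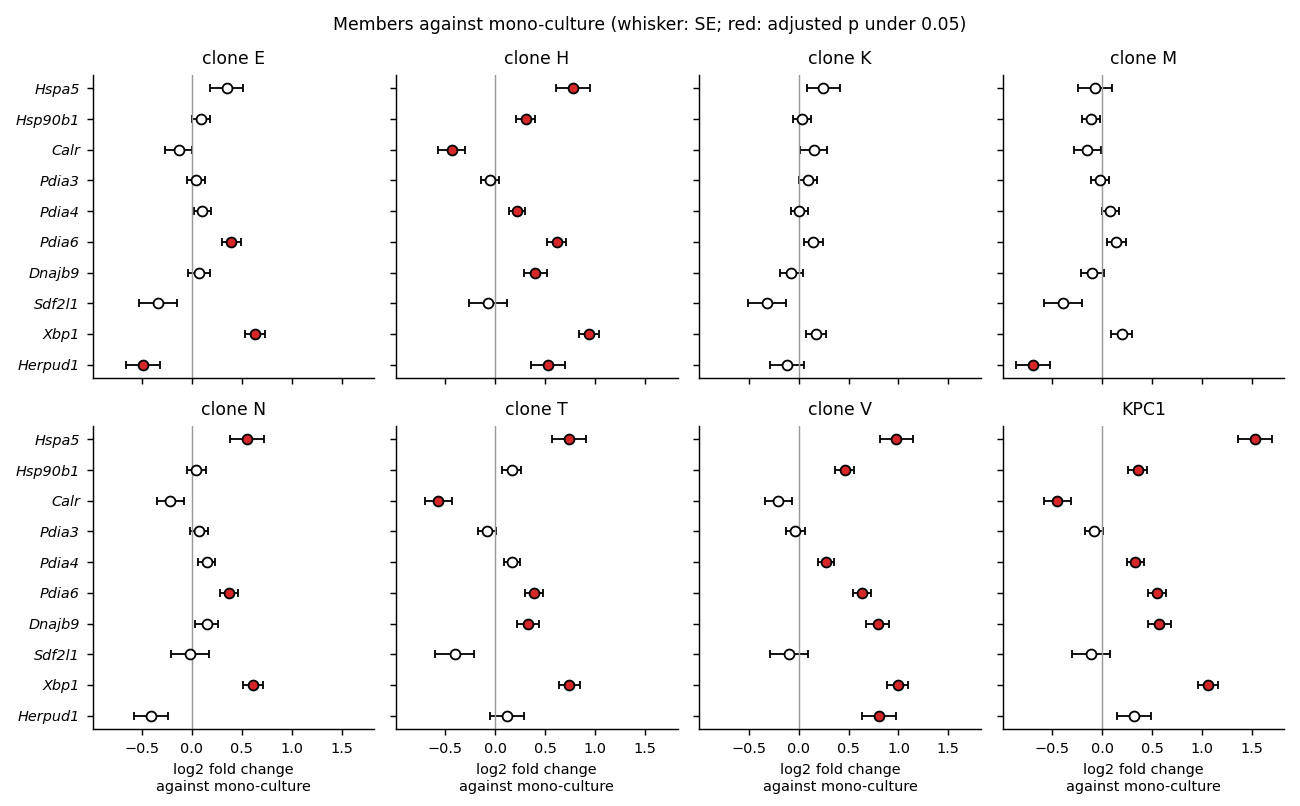
Log2 fold change of each member against mono-culture (horizontal axis), 1 panel per tumour line, with the standard error as whisker and red points for an adjusted p below 0.05. Xbp1 and Hspa5 lie farthest right in the panels of clone H, clone V and KPC1, while Calr lies left of 0 in every panel but that of clone K.

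Xbp1 (ENSMUSG00000020484, chr11:5520659-5525893), the transcription factor, was higher with 6 of the 8 lines. The mono-culture libraries had 40.6, 46.0, 43.6 and 48.6 CPM. With KPC1 they had 106, 89.6, 93.3 and 84.6 CPM, with clone V 84.6, 93.1, 84.1 and 93.8, and with clone H 81.9, 91.9, 93.9 and 74.8. All 12 of these libraries lay above all 4 of the mono-culture, without overlap. The log2 fold change was 1.06 (SE 0.102, adjusted p = 5.5e-10) with KPC1, 0.99 (SE 0.101, adjusted p = 1.8e-09) with clone V and 0.94 (SE 0.101, adjusted p = 9.2e-09) with clone H. Clones T, E and N followed, with mean levels of 74.9, 69.4 and 68.3 CPM and log2 fold changes of 0.74, 0.63 and 0.61 (adjusted p = 5.6e-07, 1.6e-05 and 1.5e-05). These 3 groups also lay entirely above the mono-culture. Clones K and M, at 46.5 to 54.1 and 44.7 to 57.3 CPM, overlapped it (adjusted p = 0.25 and 0.17).

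Hspa5 (ENSMUSG00000026864, chr2:34771970-34777547), the main chaperone of the ER and the protein that holds the 3 stress sensors inactive, showed the greatest change of any member. It stood at 429, 479, 426 and 508 CPM in the mono-culture and at 1526, 1452, 1099 and 1235 CPM with KPC1. The lowest KPC1 library was more abundant in Hspa5 than the highest library of any clone, 1044 CPM with clone V. The log2 fold change with KPC1 was 1.53 (SE 0.170, adjusted p = 8.2e-09), that is 2.88-fold. Clone V gave 897, 766, 1044 and 922 CPM and clone H 591, 719, 1030.4 and 819 CPM. Their log2 fold changes were 0.98 (SE 0.168, adjusted p = 1e-05) and 0.78 (SE 0.167, adjusted p = 0.00024). Hspa5 was also higher with clone T (mean 769 CPM, log2 fold change 0.74, adjusted p = 0.00048) and clone N (675 CPM, 0.55, 0.0089), each without overlap with the mono-culture. The call with clone N was lost without clone N replicate 4 (log2 fold change 0.42, adjusted p = 0.056). With clones E, K and M the libraries spanned 507 to 688, 442 to 649.6 and 394 to 522 CPM and were not called. With clone E the call appeared when the 8 libraries compared were fitted alone (adjusted p = 0.025, against 0.11).

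Dnajb9 (ENSMUSG00000014905, chr12:44205559-44210326), a BiP co-chaperone and a known target of spliced XBP1, had 32.7, 39.4, 30.4 and 34.2 CPM in the mono-culture. It was highest with clone V, at 67.0, 48.5, 62.7 and 58.6 CPM, 0.79 (SE 0.112, adjusted p = 5.4e-07) as log2 fold change. KPC1 followed with 48.1, 43.8, 49.0 and 62.8 CPM, and its log2 fold change was 0.57 (SE 0.112, adjusted p = 6e-05). Both groups lay entirely above the mono-culture, as did clone H (39.9 to 50.3 CPM, 0.40, adjusted p = 0.0031). Clone T overlapped the mono-culture (36.6 to 50.7 CPM, 0.33, adjusted p = 0.016), and that call was lost without scaling beyond library size (0.25, adjusted p = 0.072), on the RPKM scale, and without mono-culture replicate 3 (adjusted p = 0.055) or clone T replicate 2 (adjusted p = 0.092). Clones E, K, M and N were not called, and their log2 fold changes were 0.07, -0.07, -0.10 and 0.15.

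Hsp90b1 (ENSMUSG00000020048, chr10:86690209-86705509), the ER member of the HSP90 family, was abundant and moved little in size. It had 925, 1009, 902 and 1118 CPM in the mono-culture, 1466, 1274, 1377 and 1320.2 with clone V, 1278, 1280.4, 1187 and 1312 with KPC1 and 1170.0, 1300.0, 1199.6 and 1221 with clone H. These 3 groups did not overlap the mono-culture, and the log2 fold changes were 0.46, 0.35 and 0.31 (adjusted p = 0.0001, 0.0016 and 0.0065). With the other 5 lines the mean lay between 916 (clone M) and 1109 CPM (clone T), and none was called.

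Among the disulfide isomerases, Pdia6 rose with 6 lines, Pdia4 with 3 and Pdia3 with 0. Pdia6 (ENSMUSG00000020571, chr12:17266545-17284770) had 174, 189.8, 169.8 and 203 CPM in the mono-culture, 298, 255, 273 and 317 with clone V and 265, 311, 268 and 285 with clone H. The log2 fold change was 0.63 (SE 0.0934, adjusted p = 1e-06) with clone V and 0.62 (SE 0.0934, adjusted p = 2.2e-06) with clone H. It was 0.55 with KPC1, 0.40 with clone E, 0.39 with clone T and 0.37 with clone N (adjusted p = 8.7e-06, 0.0015, 0.00088 and 0.0019), and all 6 groups lay above the mono-culture without overlap. Pdia4 (ENSMUSG00000025823, chr6:47796141-47813430) moved less. It had 186, 194, 175 and 213 CPM in the mono-culture and 239, 223, 241 and 262 with KPC1, and the log2 fold change was 0.33 (SE 0.0839, adjusted p = 0.0011). With clones V and H the values were 0.27 and 0.22 (adjusted p = 0.0059 and 0.028), and without scaling beyond library size both missed the threshold (adjusted p = 0.070 and 0.20). The call with clone H was also lost without any of mono-culture replicates 1 and 3 and clone H replicates 2 and 4 (adjusted p between 0.062 and 0.12). Pdia3 (ENSMUSG00000027248, chr2:121413775-121438687), the partner of the lectin chaperones, had group means between 518 (clone T) and 586 CPM (clone K) beside 549.5 ± 36.1 CPM in the mono-culture (SD, n = 4), and its log2 fold changes lay between -0.08 and 0.09.

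Calr (ENSMUSG00000003814, chr8:84841850-84846934) went the other way. Calreticulin is a calcium-binding lectin that retains glycoproteins until they have folded. It had 860.0, 916, 739 and 1009 CPM in the mono-culture, 546, 666, 545 and 613 with clone T, 554, 655, 646 and 726 with KPC1 and 621, 739.5, 581 and 665 with clone H. The groups of clone T and KPC1 lay entirely below the mono-culture, and 1 library of clone H reached into its range. Calr fell in these 3 co-cultures, with log2 fold changes of -0.57 (SE 0.135, adjusted p = 0.00074), -0.45 (SE 0.135, adjusted p = 0.005) and -0.43 (SE 0.135, adjusted p = 0.0073). With clone V, where 7 other members were higher, it was not called (648 to 856 CPM, -0.21, adjusted p = 0.19). Clones E, K, M and N had means of 805, 977, 794 and 758 CPM, none of them called.

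Herpud1 (ENSMUSG00000031770, chr8:94386438-94395377), a membrane protein of ER-associated degradation known to respond to both XBP1 or ATF6 and ATF4, was called higher with some lines and lower with others. It had 137, 151, 141 and 148 CPM in the mono-culture, a narrow range. With clone V it had 307, 294, 222 and 182 CPM and with clone H 230.0, 225, 223 and 155 CPM, all above the mono-culture, with log2 fold changes of 0.80 (SE 0.170, adjusted p = 0.00016) and 0.53 (SE 0.169, adjusted p = 0.0092). With clone M it had 95.1, 103, 83.3 and 74.7 CPM, all below the mono-culture, and fell by 0.69 on the log2 scale (SE 0.170, adjusted p = 0.003). Clone E gave 139, 108, 88.8 and 75.3 CPM, 1 library of which overlapped the mono-culture, and its log2 fold change was -0.49 (SE 0.170, adjusted p = 0.026). The call with clone E was lost without mono-culture replicate 2 or 4 or clone E replicate 3 or 4 (adjusted p between 0.053 and 0.11). With clone N all 4 libraries (91.8 to 124 CPM) lay below the mono-culture, but the adjusted p was 0.055 (log2 fold change -0.41), and it passed under DESeq2 (0.048), without scaling beyond library size (0.017) and with the stricter count filter (0.042). Without scaling the split with clone N was therefore 3 members higher and 1 lower. Clone T, clone K and KPC1 were not called, at 150.1 to 166, 99.8 to 163 and 153 to 223 CPM, although the lowest KPC1 library lay just above the highest mono-culture library.

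Sdf2l1 (ENSMUSG00000022769, chr16:17130138-17132383), which binds BiP with its J-domain partners, was the noisiest member. It spanned 12.8 to 22.9 CPM in the mono-culture and its group mean was lowest with clone T and highest in the mono-culture, with every group overlapping the mono-culture. The standard deviation of log2 CPM within groups was 0.28, against 0.11 for Pdia4. The log2 fold changes, between -0.41 and -0.02, did not pass the test. Without mono-culture replicate 3 or clone T replicate 4 the lower value with clone T did pass (adjusted p = 0.039 and 0.036).

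**Figure D3:**
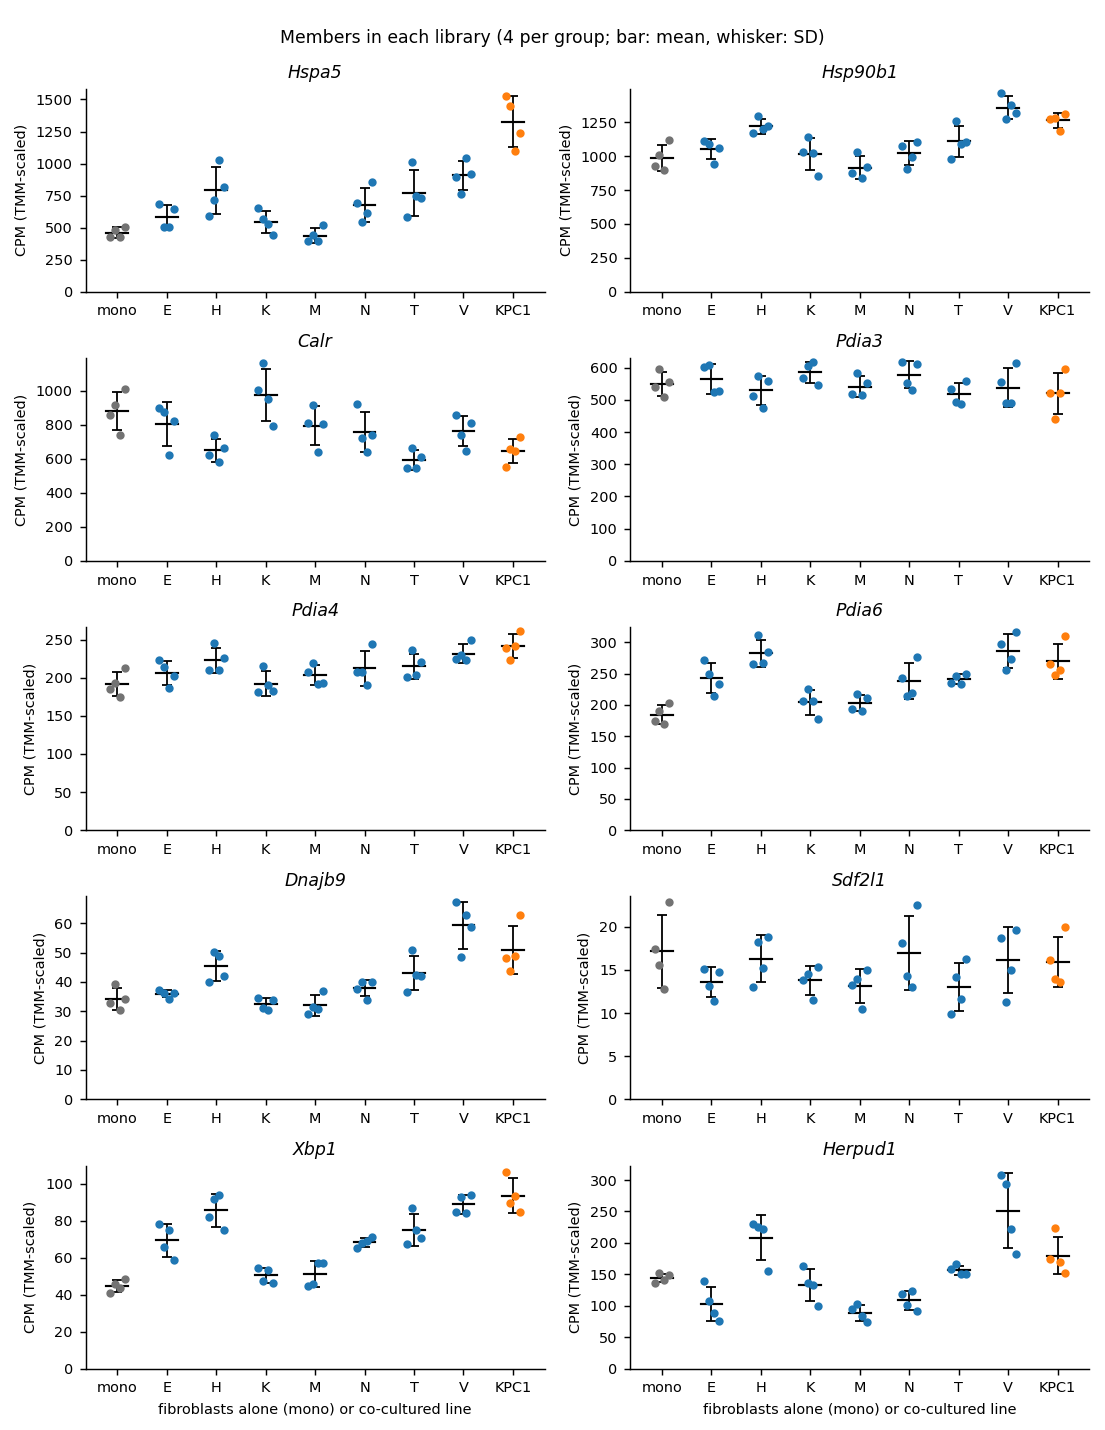
TMM-scaled CPM of each member in each of the 36 libraries (vertical axes start at 0), grouped by mono-culture (grey), clone (blue) and KPC1 (orange), with the group mean as bar and the SD as whisker. Xbp1 and Hspa5 stand above the mono-culture with clones H and V and with KPC1, Herpud1 lies above it with clones H and V and below it with clone M, and the group means of Pdia3 lie between 518 and 586 CPM.

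The second comparison asked whether the members differed by the clone the fibroblasts had grown with. An edgeR F-test over the 7 co-cultures with clones called 7 of the 10 members, where 67.5% of all genes tested were called. Herpud1 varied most, with a 2.78-fold range of clone means from clone M to clone V (adjusted p = 9.7e-09). Xbp1 ranged 1.77-fold from clone K to clone V (adjusted p = 1.9e-08) and Dnajb9 1.84-fold from clone M to clone V (adjusted p = 1.6e-07). Hspa5 ranged 2.07-fold, Calr 1.64-fold, Hsp90b1 1.49-fold and Pdia6 1.40-fold (adjusted p = 3e-05, 0.0008, 6.1e-05 and 3.6e-05). Clone V was the highest clone for each of these but Calr, which was highest with clone K. Pdia4, Sdf2l1 and Pdia3 did not pass (adjusted p = 0.088, 0.26 and 0.45). The share of members called was thus near that of all genes.

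The 8 co-cultures were also compared in pairs, 28 for each member, with p-values adjusted over all genes and pairs, of which 28.2% were called. Xbp1 was called in 19 pairs, Herpud1 in 17, Hspa5 and Dnajb9 in 15 each, Hsp90b1 and Pdia6 in 13 each, Calr in 9, Pdia4 in 4, and Pdia3 and Sdf2l1 in 0. Hspa5 ordered the lines as KPC1, V, H, T, N, E, K and M, and of the neighbours in this order only KPC1 and clone V were called different (log2 difference 0.55, SE 0.167, adjusted p = 0.013). Xbp1 gave the order KPC1, V, H, T, E, N, M and K, with a single step between neighbours that was called, from clone N down to clone M (log2 difference 0.41, SE 0.101, adjusted p = 0.0021). Herpud1 gave V, H, KPC1, T, K, N, E and M, with no neighbours called. For Dnajb9 the order was V, KPC1, H, T, N, E, K and M, and for Pdia6 it was V, H, KPC1, E, T, N, K and M, and no neighbours were called in either. Clones V and H differed in 1 member, Dnajb9, which was lower with clone H (log2 difference -0.39, adjusted p = 0.0084). Between clones H and T, and between clones E and N, 0 of the 10 members were called. KPC1 and clone V differed in 2 members, Hspa5, higher with KPC1, and Herpud1, higher with clone V (log2 difference 0.48, adjusted p = 0.030). The share of all genes called was counted over the 28 pairs together and not for each pair. Few members called in a pair therefore do not show a likeness particular to these genes.

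The other genes of the ER and of the unfolded protein response were counted from lists. Of 22 further ER folding genes, 5 were higher and 3 lower with clone H, 6 and 3 with clone V, and 7 and 4 with KPC1, with medians of 0.05, 0.10 and 0.02. Of all genes tested, 27.8% were higher and 26.4% lower with clone H, 29.4% and 28.9% with clone V, and 30.5% and 28.5% with KPC1. The share of the list called higher was thus near that of all genes. Without scaling beyond library size these splits were 5 and 6, 5 and 4, and 6 and 5, so the lean to higher values narrowed with clone V and KPC1 and turned with clone H. The BiP-related chaperone Hyou1 rose from 144 ± 26.3 CPM to 274 ± 39.5 with clone V (SD, n = 4), and its log2 fold changes with clone V and KPC1 were 0.93 (adjusted p = 5.9e-05) and 0.85 (adjusted p = 0.00017). The disulfide oxidase Ero1l rose by 1.25 (adjusted p = 3.8e-06) with clone V and 1.21 (adjusted p = 5.8e-06) with KPC1, and had a log2 fold change of -0.93 (adjusted p = 0.00093) with clone M. Fkbp14, a prolyl isomerase that acts on collagen, had log2 fold changes of -0.87 (adjusted p = 0.00012) with clone V and -0.78 (adjusted p = 0.00044) with KPC1. The list therefore moved in both directions, as all genes did, in the co-cultures where most members were higher.

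The genes of translocation into the ER that were called were mostly higher. Of 14, 8 were higher with clone V, 7 with KPC1 and clone N, 6 with clones E, H and T, and 1 with clones K and M, while at most 1 was lower. Over all genes, 16.5% to 30.5% were called higher with clones E, H, N, T and V and with KPC1. With clones K and M these shares were 10.4% and 12.2%. The medians ran from -0.11 with clone M to 0.35 with clone V. Without scaling beyond library size the counts with clones E, H, T and V were 4, 6, 6 and 8 higher, with at most 1 lower. The signal peptidase subunit Spcs3 had 166 ± 25.7 CPM in the mono-culture and 342 ± 15.2 with clone V (SD, n = 4), a log2 fold change of 1.04 (adjusted p = 3.9e-08). The translocon partner Sec62 and the signal recognition particle receptor Srpr rose by 0.47 (adjusted p = 1.4e-07) and 0.49 (adjusted p = 3.2e-06) with clone V. With these lines 25% to 30.5% of all genes were called higher and 24.7% to 28.9% lower for clones H, T and V and KPC1. Of 14 tested genes of ER-associated degradation, 5 were higher and 4 lower with clone V, 3 and 4 with clone H, 4 and 5 with KPC1 and 5 and 5 with clone T, with medians of 0.05, 0.06, 0.06 and 0.09. Without scaling beyond library size these splits were 3 and 4, 2 and 5, 2 and 5, and 1 and 5. Derl1, a channel component, and Edem1, which directs misfolded glycoproteins, had log2 fold changes of 0.26 (adjusted p = 0.0031) and 0.36 (adjusted p = 0.02) with clone V. Sel1l, the scaffold of the degradation complex, had 0.38 (adjusted p = 0.042).

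The 9 sensors and ER-bound factors went both ways. With KPC1 3 were higher and 3 lower, with clones N and T 3 and 2, with clone H 2 and 2, with clone V 2 and 1 (2 and 4 without scaling), with clones E and M 0 and 1, and with clone K 0 and 0. All genes tested also went both ways, with 30.5% higher and 28.5% lower with KPC1 and 29.4% and 28.9% with clone V. These shares were 27.8% and 26.4% with clone H, 25% and 24.7% with clone T, and 19.7% and 19.2% with clone N. With clones E, M and K they were 16.5% and 15.5%, 12.2% and 10.8%, and 10.4% and 8.69%. Atf6 had 82.6 ± 5.83 CPM in the mono-culture, 271 ± 75.4 with KPC1, 251 ± 43.6 with clone V and 222 ± 54.8 with clone H (SD, n = 4). Its log2 fold change was 1.72 (adjusted p = 1.5e-08), 1.60 (adjusted p = 4.7e-08) and 1.42 (adjusted p = 4.7e-07), and 1.48 (adjusted p = 3.6e-07) with clone T and 0.99 (adjusted p = 0.00013) with clone N. Ern1, which encodes the kinase and nuclease IRE1, was higher with the same 5 lines, by 1.35 (adjusted p = 6.1e-06) with KPC1 and 1.01 (adjusted p = 0.00029) with clone H. Mbtps2, the protease that releases ATF6, had 0.58 (adjusted p = 0.0015) with KPC1 and 0.38 (adjusted p = 0.04) with clone T. Among the genes called lower, which are named after their values were seen, the ER-bound factor Creb3 was lower with every line but clone K, by a log2 fold change of -0.60 (adjusted p = 7.7e-07) with clone T and -0.40 (adjusted p = 0.00011) with KPC1. Atf6b, a relative of Atf6, was lower with clones H, N and T and with KPC1, at -0.37 (adjusted p = 0.0031) with clone T, and the protease Mbtps1 with KPC1 alone (-0.41, adjusted p = 0.001).

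The PERK arm, 9 genes that ATF4 is known to induce or that act with it, had a wider range of medians than the members. All 9 were higher with clones H and V, 8 with KPC1 and 7 with clone T (5 without scaling), with medians of 1.41, 1.53, 1.40 and 0.79. Between 25% and 30.5% of all genes were called higher with these lines. With clone M 0 were higher and 5 lower, with a median of -0.73, where 12.2% of all genes were higher and 10.8% lower. Clones E, K and N had 1, 0 and 0 lower and 0, 0 and 1 higher. Of all genes, 15.5%, 8.69% and 19.2% were lower and 16.5%, 10.4% and 19.7% higher with these clones. The glutathione-degrading enzyme Chac1 had 42.5 ± 7.17 CPM in the mono-culture, 123 ± 21.5 with clone V and 16.9 ± 4.22 with clone M (SD, n = 4). The stress factor Atf3 had a log2 fold change of 2.11 (adjusted p = 2.2e-05) with clone V, and asparagine synthetase, Asns, one of 1.69 (adjusted p = 2.7e-07). With clones E and N, 2 and 3 members were higher, Xbp1 and Pdia6 in both, where 0 and 1 of the 9 PERK-arm genes were. Without scaling beyond library size the PERK-arm count with clone N was 0. Of all genes 16.5% and 19.7% were called higher with clones E and N, so these counts were small on both sides. Whether the lists differed from each other was not tested.

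Cytosolic heat shock genes, which answer to HSF1 and not to the ER sensors, were split. With KPC1 3 of 12 were higher and 5 lower, with clone V 4 and 3, and with clone H 4 and 3, with medians of -0.11, 0.07 and -0.06. The shares of all genes were 30.5% higher and 28.5% lower with KPC1, 29.4% and 28.9% with clone V, and 27.8% and 26.4% with clone H. Hsp90aa1, an inducible cytosolic HSP90, had a log2 fold change of 0.61 (adjusted p = 9.4e-05) with clone V and -0.57 (adjusted p = 0.00097) with clone M, and its close relative Hsp90ab1 0.42 (adjusted p = 0.0027) with KPC1. Hspa1b had -1.41 (adjusted p = 2.1e-06) with KPC1 and -1.39 (adjusted p = 2.4e-06) with clone V, a value that is uncertain because Hspa1a is nearly identical in sequence.

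**Figure D4:**
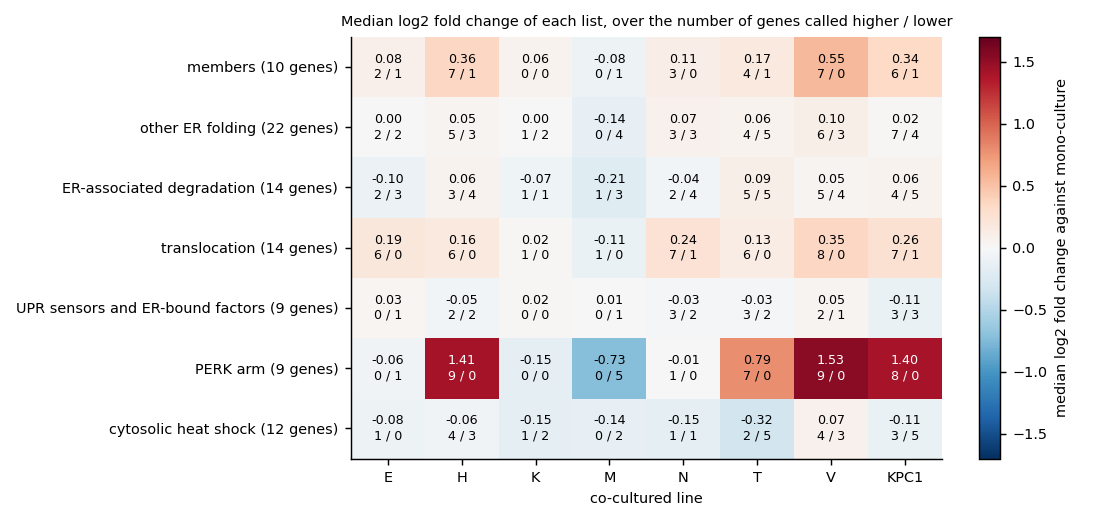
Median log2 fold change against mono-culture of the members and of 6 lists of related genes (rows, number of genes tested) with each tumour line (columns), and in each cell the number of genes called higher / lower. The PERK arm has the strongest colour, from 1.53 with clone V to -0.73 with clone M, and the members are warm with clones H and V and with KPC1.

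Across the 36 libraries the members did not vary as 1 block. As a description, with libraries that share groups and scaling, the Pearson r of a member with the mean of the other 9 was 0.91 for Hsp90b1, 0.87 for Pdia6, 0.82 for Pdia4, 0.80 for Dnajb9, 0.72 for Hspa5 and 0.64 for Xbp1. It was 0.53 for Herpud1, 0.49 for Sdf2l1, 0.03 for Pdia3 and -0.17 for Calr. After each group was centred on its own mean, the median r with the other members was 0.57 for Calr and 0.41 for Pdia3. It was 0.12 for Xbp1 and 0.04 for Herpud1. Without centring the median r was -0.20 for Calr and -0.06 for Pdia3. By this median, Calr and Pdia3 followed the other members more closely within groups than over all libraries. The genes most like the mean of the members, among 11685 genes, were Pdcd5 (r = 0.89), Srpr (0.88), Txnl1 (0.88), Eif2s1 (0.88), Cenpi (0.87), Hyou1 (0.87), Kpna4 (0.87), Ptges3 (0.87), Cycs (0.87) and Gm9769 (0.86). Of these 10, Hyou1 and Srpr belonged to the lists above, and they were still the only 2 list genes among the 50 most alike. The PERK-arm genes had r between 0.44 and 0.76.

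Tumour RNA in the sorted fibroblasts was examined through marker genes. Fibroblast markers were abundant in every library, with 18662 to 41634 CPM summed over 10 genes. They nevertheless differed between the groups. With clone H 3 were higher and 5 lower, with clone V 2 and 5, with clone T 4 and 6 and with KPC1 4 and 6, with medians of -0.51, -0.48, -0.59 and -0.86. With clones E, K, M and N 2, 2, 1 and 3 were higher and 0 lower, with medians of 0.03, 0.38, 0.20 and 0.03. The matrix proteoglycan gene Lum, chosen after its values were seen, had the lowest value, -4.29 (adjusted p = 4.7e-07) with KPC1. Of 12 epithelial markers 8 were tested, and 4 to 7 of them were called higher in each co-culture. Their sum was 2.81 to 4.29 CPM in the mono-culture, 20.7 to 306 with clone K, 32.6 to 218 with clone V, 55.5 to 532 with clone M, 66.1 to 241 with clone H, 186 to 592 with KPC1, 265 to 502 with clone E, 290 to 805 with clone T and 441 to 679 with clone N. Single markers went different ways. Krt18 had 3361 to 7641 counts with clone T and 1 to 4 in the mono-culture, and Krt8 had 1170 to 4033 and 0 to 2. Epcam had at most 9 counts in any library, reached in the mono-culture. The mean sum was 104 CPM with clone V, 154 with clone K, 159 with clone H, 255 with clone M, 359 with clone E and with KPC1, 502 with clone T and 540.3 with clone N. In the same order the members called higher numbered 7, 0, 7, 0, 2 (clone E), 6 (KPC1), 4 and 3. The shares of all genes called higher were 29.4%, 10.4%, 27.8%, 12.2%, 16.5%, 30.5%, 25% and 19.7%. The lines differed in single markers, and mean Cdh1 was 0.03 CPM with clone M and 26.4 with clone N. The sum is thus not a like measure of tumour RNA in each line. The sums for leukocyte, endothelial and acinar markers stayed at or below 33.4, 6.33 and 0.165 CPM, with Ptprc, Cdh5 and the 4 acinar genes too low to test. The part of tumour RNA, or of the shift in fibroblast markers, in the members' values was not tested. In such bulk libraries more of a cell type and more RNA per cell cannot be told apart.

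**Figure D5:**
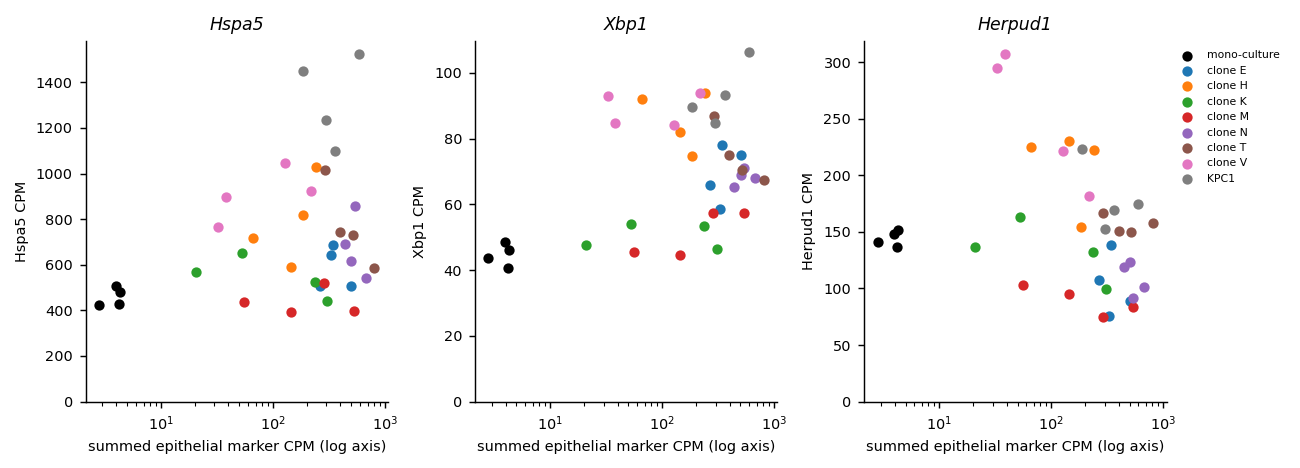
CPM of Hspa5, Xbp1 and Herpud1 (vertical axes) in each of the 36 libraries against the summed CPM of the epithelial markers (horizontal log axis), coloured by group. Mono-culture libraries stand alone at the left, and the co-cultures spread to its right, KPC1 having the highest means of Hspa5 and Xbp1 at a mean sum of 359 CPM, clone V the highest of Herpud1 at 104 CPM, and clones K and N lower means of all 3 genes than either at 154 and 540.3 CPM.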

How the data were processed

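RNA of sorted fibroblasts was measured in 36 libraries. Each gene's value in the table that the authors deposited is a whole-number read count without scaling between libraries. The authors also deposited RPKM values, which follow from the counts, the gene lengths and the library totals. The submitters' processing notes name STAR, featureCounts, edgeR and mm10. Their versions, the annotation and whether strand was used in counting are not given in the sources used here, so genes that overlap or have near-identical copies are uncertain. Library totals ran from 12532122 to 21985538 counts.

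Groups came from the labels. The count model was fitted in R 4.3.3 with edgeR 4.0.16. After filterByExpr, 14439 genes were scaled by TMM and fitted with a robust quasi-likelihood model of 1 coefficient per group over the 36 libraries. Benjamini-Hochberg adjustment ran over the genes tested, with a threshold of 0.05. Log2 CPM used a prior count of 1. Genes outside the 10 were named by rule: in each of 6 lists the 3 with a mean of at least 2 CPM and an F-test call that had the widest range of clone means, and the 10 most correlated with the mean of the members. The members, lists and tests were chosen with earlier results of these data known.

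The alternatives tried were an adjusted p threshold of 0.1, RLE in place of TMM, library totals alone, all genes kept, a minimum of 10 counts in each library, a block for the replicate number, DESeq2 1.42.0, limma 3.58.1 on log2(RPKM + pseudocount) with pseudocounts of 1 and 0.1, fits of the libraries compared alone, and the omission of single libraries. The scripts were tested on simulated counts. No 2 libraries of a group agreed within sampling noise, the lowest chi-square per degree of freedom being 5.48 over 54 pairs. Promoter windows came from RefSeq (GRCm38.p6), and transcripts and gene positions from GENCODE M21 (GRCm38).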

Additional observations from a re-analysis of the deposited data

Results flagged for a closer look

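Of 90 sets of 4 libraries (10 members in 9 groups), 1 held a library whose gap to the others exceeded Dixon's 95% critical value, where chance alone flags about 1 in 20 sets. It was Herpud1 with clone H, where replicate 4 had 155 CPM and the others 223 to 230.0 CPM, a gap of 0.905 of the whole range. Herpud1 with clone H was still called without this library.

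The responses of 7 members differed between the clones by the F-test, which compares the co-cultures with each other and not with the mono-culture. As 67.5% of all genes tested passed it, this number is near the background. The edgeR adjusted p was 9.7e-09 for Herpud1, 1.9e-08 for Xbp1, 1.6e-07 for Dnajb9, 3e-05 for Hspa5, 3.6e-05 for Pdia6, 6.1e-05 for Hsp90b1 and 0.0008 for Calr. Herpud1 was called higher with clones H and V and lower with clones E and M, against the same 4 mono-culture libraries.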

How the results depend on the processing

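Of 800 log2 fold changes of members recomputed under settings other than leaving out a library, 11 lost a call, 15 gained one and 0 called values changed sign. Leaving out each library in turn gave 2880 values, of which 11 lost a call, 14 gained one and 0 called values changed sign. Values not called changed sign in 15 and 23 cases. The calls lost or gained were those of Hspa5 with clones E and N, Pdia4 with clones H, T and V, Dnajb9 with clone T, Sdf2l1 with clones M and T, and Herpud1 with clones E and N and with KPC1. The cause was not tested. The number of members called stayed within 1.5 times its value, except with clone M under the replicate block. Omitting 1 library gave 2 to 3 members with clone E, 2 (without clone N replicate 4) to 4 with clone N, 4 to 6 with clone T and 7 to 8 with clone H. Pairs of co-cultures called numbered 105, 92 to 127 under the other settings and 95 to 109 when 1 library was left out. The libraries hold 168 to 500 counts of Sdf2l1, the fewest of any member.

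Deviations from the group means did not pair the libraries by replicate number. The correlation of same-numbered libraries was between -0.58 and 0.46 over the 8 comparisons with the mono-culture and passed 0.1 for every number in 0 of them, and in 3 of 28 pairs of co-cultures. Every library correlated best with its own number in 3 of 36 pairs of groups, a hint from the data and not the design. With the replicate block, 2 members were called with clone M instead of 1, 9 by the F-test instead of 7 and 124 pairs instead of 105. Sdf2l1 then passed as lower with clones M and T (adjusted p = 0.042 and 0.017), and Herpud1 as lower with clone N and higher with KPC1 (adjusted p = 0.0047 and 0.030).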
